A study of Homo sapiens with 6 samples.

Results

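Chromosome 4 of the breast adenocarcinoma line HCC1954 and of the esophageal adenocarcinoma line OE33 is described here from in situ Hi-C maps. It was selected on measured values, because in both maps it had the highest number of line-specific contacts among 23 chromosomes, so those counts and the contacts chosen with them are given as a description and were not tested. The members are all pairs of 40-kb bins within the chromosome, 11417031 of 147781476 bin pairs within chromosomes, made from 4779 of 75918 bins. Of these bins, 4427 on chromosome 4 and 64931 in all had at least 0.25 of the median coverage in every line and were used, and they formed 894 blocks of 200 kb with at least 3 usable bins. The study compared the chromatin folding of cancer lines that carry somatic rearrangements, with structural variants called from whole-genome sequencing. Its examples include a duplication in HCC1954 and a deletion in OE33 on chromosome 4, whose positions its text does not give. SW480 and SNU-C1, both from colorectal adenocarcinoma, served as comparison for HCC1954 and OE33, all as untreated established lines. For SW480 there were replicates 1 and 2 and a map that pools both, and each of the other lines had a single map, which may itself pool libraries, since the methods describe Hi-C in duplicate. No test across samples was possible for the lines with 1 map, and the spread between the SW480 replicates is the only replicate error in these data.

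Hi-C counts how often positions of the genome are joined after crosslinking, and the count falls steeply with the distance along a chromosome. Active regions of a chromosome meet preferentially in compartment A and inactive, gene-poor regions in compartment B, while topologically associating domains (TADs) are stretches of preferred contact separated by boundaries, many of which bind CTCF. Where distant pieces of a chromosome are joined in a rearranged genome, Hi-C maps usually show a block of contact with a sharp corner, and gained or lost copies show as steps in coverage.

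Values are given as O/E, the contact frequency over the mean of all chromosomes in that map at an equal distance. Whole read pairs were recovered from the corrected values and are given beside it, with exact 95% Poisson intervals that cover counting error only, since these reads carry no molecular identifiers. Within chromosomes the maps held 93352910 read pairs for HCC1954, 89330971 for OE33, 133382244 for SW480 and 115014329 for SNU-C1, and chromosome 4 held 5887594, 4203907, 7156536 and 5136444 of them. OE33 was therefore the shallowest map on this chromosome.

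The ends of the HCC1954 contacts were searched for the core motif of CTCF, read on both strands as CCAC, any base, AGG, any base and GGC, in the GRCh37 (hg19) sequence. Chromosome 4 held 265 matches, in 4.99% of 4189 bins with an insulation score. The match nearest to an end is shown for 5 of the ends discussed below, read 5′ to 3′ on the strand of the match, with the motif in capitals between 9 bases on either side.
SLIT2 end, chr4:20625273-20625302, minus strand, between *SLIT2* and *PACRGL*: atctcatatCCACAAGGTGGCcattccagc
PDGFC end, chr4:158114497-158114526, minus strand, between *GLRB* and *GRIA2*: tcagcaagtCCACCAGGAGGCacaataaat
CLCN3 end, chr4:170541396-170541425, plus strand, in an intron of *CLCN3*: aaacatctcCCACAAGGTGGCcgcctcgcg
GALNT7 end, chr4:174209628-174209657, plus strand, in an intron of *GALNT7*: aatcccatcCCACTAGGTGGCgctgtagga
VEGFC end, chr4:178080979-178081008, plus strand, between *VEGFC* and *NEIL3*: caacatgctCCACTAGGTGGCtttagtctt
The matches of the SLIT2, CLCN3 and GALNT7 ends lay 5.29, 38.6 and 69.6 kb from the centre of the end bin, and those of the PDGFC and VEGFC ends lay 255 and 501 kb away. At the FAM13A, KLF3 and YIPF7 ends, which are not printed, the nearest match lay 128, 213 and 825 kb away. A match describes letters only, and binding of CTCF was not measured here.

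Coverage of HCC1954 on chromosome 4 changed in steps, several of which the other lines did not share. Coverage here is the number of read pairs within chromosomes in a 200-kb block over the autosomal median of the same map, and the median over the chromosome was 1.01 in HCC1954, 0.741 in OE33, 0.818 in SW480 and 0.699 in SNU-C1. More copies of a region and more joined pairs per copy cannot be told apart in it. Between the SW480 replicates, the log2 ratio of coverage had an SD of 0.0281 over 894 blocks and ran from -0.08 to 0.11. Relative to the median of the other 3 lines, HCC1954 fell into 15 segments and OE33 into 11, against 7 in SW480 and 26 in SNU-C1. These numbers moved with the settings, and steps of the same direction within 600 kb were found in all 5 planned settings at 6 places in HCC1954 and at 2 places each in the other lines.

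The 6 steps of HCC1954 lay at 20.6, 38.4, 46.4, 161.8, 165.8 and 176 Mb. At 20.6 Mb its own coverage, over 10 blocks on either side, fell from 0.747 to 0.50, while the ratio after to before was 0.994 to 1.09 in the other lines. At 38.4 Mb it rose from 0.768 to 1.36, a ratio of 1.77 against 1.01 to 1.10 in the other lines. The piece between both steps, 20.6 to 38.4 Mb, had 0.797 times the coverage of the other lines (log2 -0.33, SD 0.23 over 89 blocks), the lowest of the 15 segments. At 161.8 Mb coverage fell from 1.31 to 0.783, and at 165.8 Mb it rose from 0.737 to 1.09. At 176 Mb it rose from 1.29 to 1.96, while SW480 and SNU-C1 fell to 0.792 and 0.812 of their level before the step. The step at 46.4 Mb was one of the ratio to the other lines, since the coverage of HCC1954 itself moved only from 1.31 to 1.22. The highest segments of HCC1954 were 43 to 46.4 Mb at 2.14 times, 156.2 to 161.8 Mb at 1.90 times and 176 to 178.6 Mb at 2.73 times the other lines. The last of these holds *VEGFC*, a growth factor of lymphatic vessels. At 43 Mb the coverage of HCC1954 itself moved only from 1.41 to 1.43, while the other lines fell to 0.757 to 0.854 of their level before the step. That step was found in 3 of 5 settings, and the one at 156.2 Mb in 2 of 5.

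In OE33, 171 to 178.8 Mb had 0.461 times the coverage of the other lines (log2 -1.12, SD 0.24 over 26 blocks). Its own coverage fell from 0.857 to 0.394 at 171 Mb, against ratios after to before of 0.834 to 1.05 in the other lines, and the step was found in 4 of 5 settings. The blocks from 176 to 178.6 Mb thus had a coverage of 1.87 in HCC1954 and 0.376 in OE33, with 0.761 in SW480 and 0.679 in SNU-C1. Coverage of OE33 rose again at 179.4 Mb, from 0.368 to 0.476, a step found in all 5 settings. The other OE33 step found in all settings, at 9.8 Mb, was carried by the comparison lines. There SNU-C1 and HCC1954 rose by ratios of 1.91 and 1.85 and SW480 by 1.21, while OE33 went from 0.892 to 0.816. Before that step OE33 had 1.58 times the coverage of the other lines from 0 to 7.2 Mb and 2.10 times from 7.2 to 8.8 Mb.

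**Figure D1:**
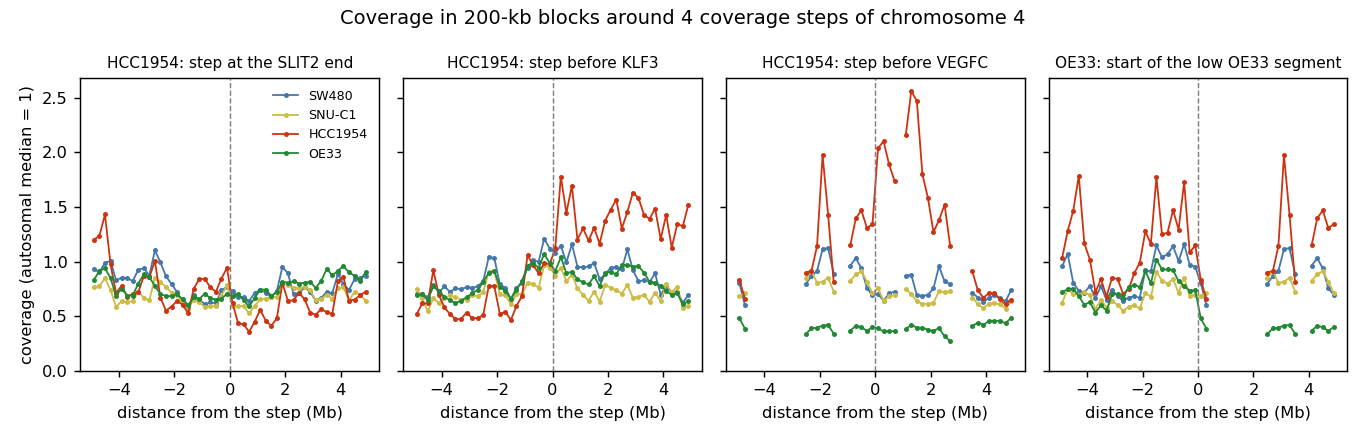
Coverage per 200-kb block (autosomal median is 1) against the distance in Mb from 4 coverage steps, with 1 point per usable block and line. HCC1954 changes level at the step by *SLIT2* and at those before *KLF3* and *VEGFC*. Ahead of the last of these it is already the highest (1.29 against 0.390 to 0.928). OE33 falls from 0.857 to 0.394 at the start of its low segment.

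The contact of HCC1954 between 38.52 and 44.60 Mb joined the region just before *KLF3*, a Krüppel-like repressor of transcription, with *YIPF7*, which encodes a membrane protein of the early secretory pathway. Summed over 3 by 3 bins around chr4:38520001-38560000 and chr4:44600001-44640000, HCC1954 had 305 read pairs (95% interval 272 to 341), while SW480 had 6 (4 in replicate 1 and 2 in replicate 2), SNU-C1 had 3 and OE33 had 2. The O/E was 30.5 in HCC1954 and 0.381 to 0.521 in the other lines, and the ratio to the highest of them, after 0.5 was added to each, was 30.4. Beyond the nearest bins, contact was higher on the inner side of the pair. At a summed distance of 40 to 200 kb from the peak the O/E was 9.96 to 19.0 on all 4 sides, and at 200 to 400 kb it was 12.6 on the inner side and 0.651 to 3.23 on the others. In squares of 400 kb beside the contact, the O/E was 7.49 after the first and before the second end, which is the inner side, and 0.549 to 0.756 in the other 3 squares. The coverage of HCC1954, averaged over 1 Mb on either side, rose 1.58-fold across the first end and fell to 0.801 across the second, so the inner side had the higher coverage at both ends, while the other lines stayed between 0.921 and 1.06.

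The contact between 157.84 and 170.56 Mb was the highest in read pairs. It joined *PDGFC*, which encodes a platelet-derived growth factor, with *CLCN3*, which encodes a chloride-proton exchanger of endosomes, at chr4:157840001-157880000 and chr4:170560001-170600000. HCC1954 had 1303 read pairs (95% interval 1233 to 1376) and the other lines 20 (SW480, 13 and 7 in its replicates), 1 (SNU-C1) and 5 (OE33). The O/E was 90.1 in HCC1954, 1.87 in SW480, 0.25 in SNU-C1 and 1.39 in OE33, and the ratio was 38.2. The contact frequency at its peak was 1.46 times the genome-wide mean at 400 kb, although the ends lie 12.72 Mb apart. The inner square again held the contact, with an O/E of 11.2 against 1.01 to 1.49 in the other 3. On that side it fell within a short distance, since the O/E was 26 at a summed distance of 200 to 400 kb from the peak, 3.5 at 400 to 800 kb and 0.925 at 800 to 1600 kb. Coverage fell to 0.657 across the *CLCN3* end in HCC1954, and SW480 and SNU-C1 fell to 0.771 and 0.848. OE33 fell to 0.655, but the 1 Mb averaged after this end runs past the OE33 coverage step at 171 Mb.

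The contact between 174.12 and 177.56 Mb joined *GALNT7*, an enzyme of mucin-type O-glycosylation, with a bin 4.69 kb from *VEGFC*, at chr4:174120001-174160000 and chr4:177560001-177600000. HCC1954 had 529 read pairs (95% interval 485 to 576) against 4 in SW480 (3 and 1 in its replicates), 1 in SNU-C1 and 2 in OE33. The O/E was 17.0 in HCC1954 and 0.191 to 0.889 in the other lines, with a ratio of 12.6. By contact frequency the peak lay 1 bin nearer, at 177.52 Mb, with 966 read pairs, a ratio of 7.51 and 19.8 for the O/E. The squares here differed from those of the first contacts. Enrichment lay before the second end on both sides of the first, with an O/E of 3.01 before and 2.90 after it, against 0.942 and 0.864 beyond the second end. Coverage of HCC1954 stepped down to 0.677 across the *VEGFC* end, from 2.16 to 1.46, where the other lines changed to between 0.943 and 0.990. At both ends OE33 lies within its segment of low coverage, at 0.366 to 0.386, so its counts there have the least depth.

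A search of all bin pairs at least 1 Mb apart, for a contact frequency at the genome-wide mean at 1 Mb or higher, at least 10 read pairs and at least 4 times the frequency of each other line, gave 13 contacts in HCC1954, 4 in OE33, 2 in SNU-C1 and 0 in SW480. At the genome-wide mean at 400 kb there were 2 in HCC1954, 1 in SNU-C1 and 0 in SW480 and OE33. The longest reached from 20.60 to 89.96 Mb across the centromere, from the end of *SLIT2*, a secreted guidance ligand of ROBO receptors, to *FAM13A*, which has a RhoGAP domain (chr4:20600001-20640000 and chr4:89960001-90000000). HCC1954 had 107 read pairs there (95% interval 87.7 to 129), SW480 and SNU-C1 had 0, where a count of 0 allows up to 3 read pairs, and OE33 had 1. At this distance of 69.36 Mb the O/E was 211 in HCC1954 and 1.98 in OE33, the latter from that single read pair. The square before both ends had an O/E of 59.0 with 466 read pairs, and the square after both had 11. The *SLIT2* end coincided with the coverage step at 20.6 Mb, and across it the coverage of HCC1954 fell to 0.544, with 0.919 to 1.04 in the other lines. At the *FAM13A* end it fell to 0.740, with 0.932 to 1.12 in the others, so at both ends the connected side had the higher coverage.

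The other contacts of HCC1954 from this search had O/E values from 5.33 to 29.1. The contact of 78.92 with 87.08 Mb, next to *FRAS1* of the basement membrane and within the kinase gene *MAPK10* (JNK3), had 186 read pairs against 2 in SW480 and 3 each in SNU-C1 and OE33, an O/E of 29.1 and enrichment after both ends (5.13). The contact of 116.96 with 125.24 Mb had 113 read pairs and was enriched before both ends (3.25, against 0.468 to 0.641 in the other squares). A further contact, of 117.96 with 124.00 Mb, *TRAM1L1* with *SPATA5*, had 75 read pairs, and coverage of HCC1954 rose 1.42-fold and 1.68-fold across its ends. Contacts at 154.96 with 170.28 Mb and at 158.64 with 166.48 Mb had 137 and 135 read pairs and an O/E of 27.4 and 16.9, with all their squares between 0.826 and 1.22, so no square beside them was enriched. The contact with the fewest read pairs and the lowest ratio, at 29.80 and 33.04 Mb, had 29 read pairs in HCC1954 against 20, 13 and 10 in SW480, SNU-C1 and OE33. Of the 4 contacts found in OE33, those at 173.48 with 177.92 Mb and 174.96 with 178.36 Mb lay within its low-coverage segment and had 10 read pairs each, no more than SW480 and HCC1954 had at the second of them (10 and 11). The remaining ones, at 59.04 with 61.92 Mb and 132.52 with 137.08 Mb, had 37 and 20.

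**Figure D2:**
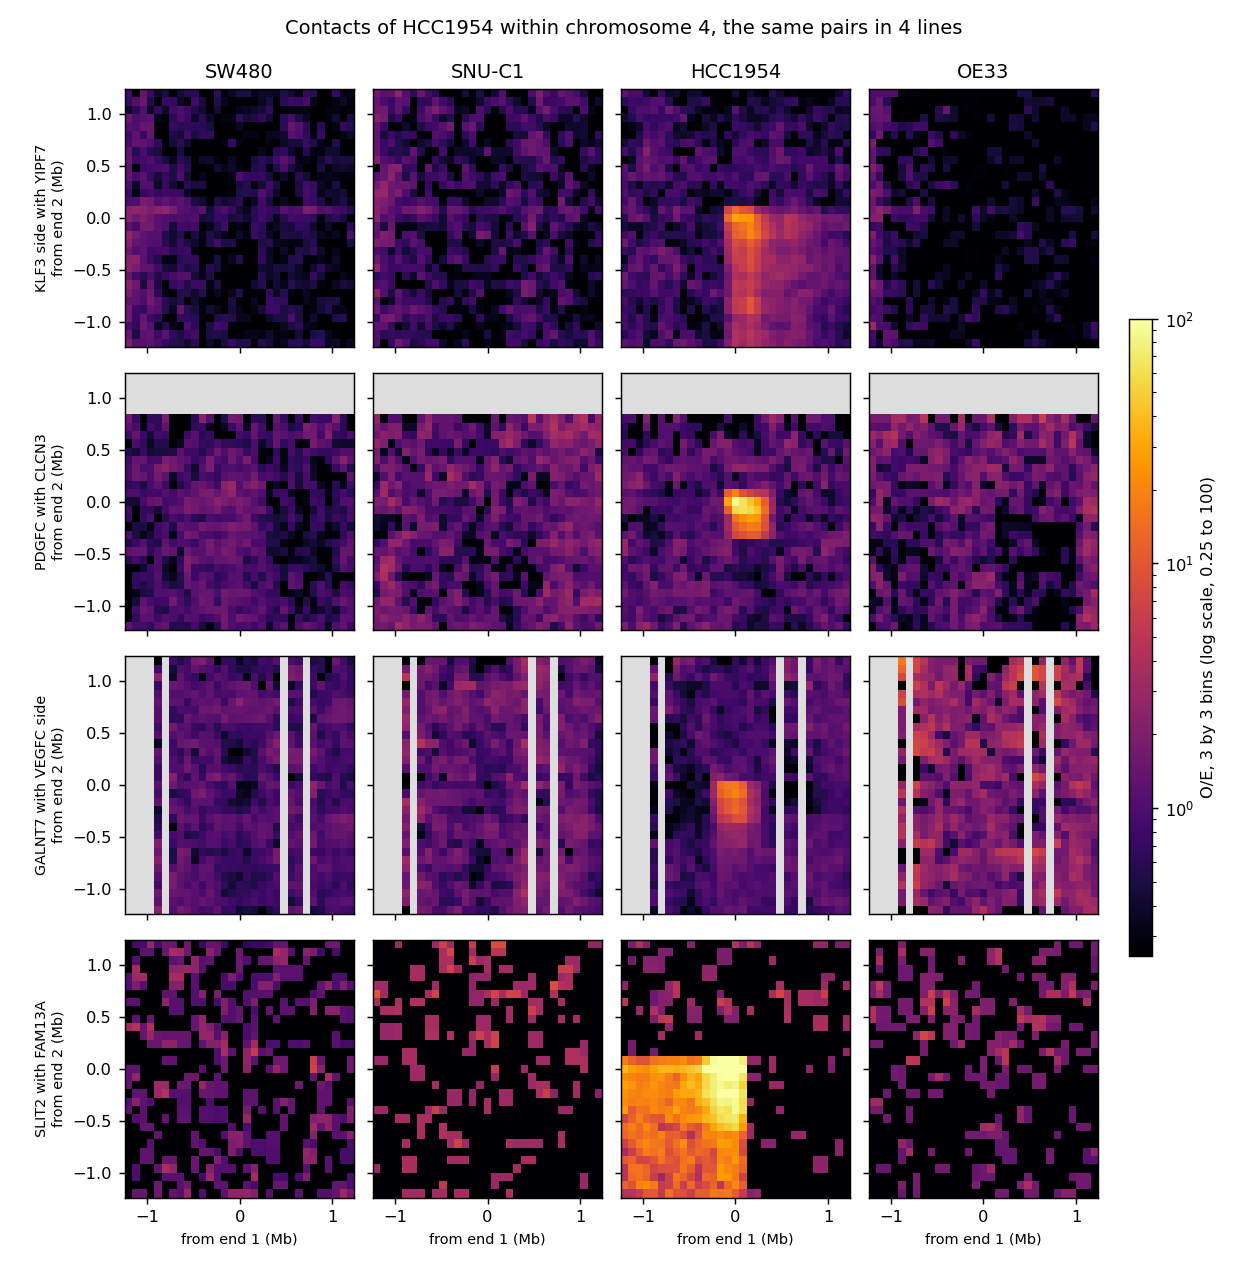
O/E of HCC1954 contacts (log colour scale from 0.25 to 100, sums of 3 by 3 bins) against the distance in Mb from each end, for the same bin pairs in the 4 lines, with unusable bins in grey. The block with a corner at the contact appears in HCC1954 only, on the inner side for *KLF3* with *YIPF7* (7.49 beside the corner) and *PDGFC* with *CLCN3* (11.2), and before both ends for *SLIT2* with *FAM13A* (59.0).

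Line-specific block pairs were those of 200-kb blocks at least 2 Mb apart whose O/E was 4 or more and, after 0.5 was added, 4 or more times the highest among the other lines. Of 391476 block pairs on chromosome 4, 1767 (0.451%) were specific to HCC1954, 1686 (0.431%) to OE33, 1280 to SNU-C1 and 186 to SW480. SW480 had the deepest map, and each of its replicates alone, at lower depth, passed more block pairs than the 186, as given below. Over all 4502087 block pairs of all chromosomes the shares were 0.244% in HCC1954, 0.109% in OE33, 0.205% in SNU-C1 and 0.0453% in SW480. These shares used the contrast that chose the chromosome, and nothing is read from them. The cutoff passes through a continuum. In HCC1954 the lowest ratio inside was 4.0051 and the highest outside 3.9982, in OE33 they were 4.0014 and 3.9972, and 324 block pairs of OE33 lay at a ratio of 4 to 4.5 and 529 at 3.5 to 4.

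Most of these block pairs rested on few read pairs. In OE33, 1472 of 1686 (87.3%) had under 10, the median was 4 where 0.712 were expected from distance and bin factors, and 82 had a single read pair. That share holds for blocks of 200 kb only and was far lower with blocks of 400 kb, as given in the closing section. In HCC1954, 1576 (89.2%) had under 10, with a median of 3 for 0.462 expected, and 385 had a single one. With at least 10 read pairs, 214 remained in OE33, 191 in HCC1954, 7 in SW480 and 6 in SNU-C1, and over all chromosomes this stricter call passed 0.0169% of block pairs in OE33, 0.0423% in HCC1954, 0.0104% in SW480 and 0.0399% in SNU-C1. The same rule applied to each SW480 replicate, against the other replicate and the other 3 lines, gave 496 and 472 block pairs on chromosome 4, of which 0 and 1 had at least 10 read pairs. Between 2 maps of 1 line, each with about the depth of OE33 here (3381277 and 3451909 usable read pairs against 4085965), the rule thus passed block pairs that, but for 1, had under 10 read pairs.

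The highest counts were of another order in HCC1954. Its line-specific block pairs reached 2135 read pairs, against 42 in OE33, 19 in SNU-C1 and 14 in SW480. The largest patch of touching HCC1954 block pairs with at least 10 read pairs held 109 of them, from 14.2 to 20.8 Mb with 87 to 90.2 Mb, around the contact of *SLIT2* with *FAM13A*. These 109 held 3089 read pairs. The whole rectangle they span, of 528 block pairs, had 5604 read pairs in HCC1954 for 834 expected (6.72 times) and 0.554 to 1.36 times in the other lines. Further patches, given by their number of block pairs and by the read pairs over expected of the whole rectangle, lay at 57.8 to 61.8 with 119.2 to 121.4 Mb (20 block pairs, 5.69 times expected, and 2.10 times in OE33), 19.2 to 20.8 with 78.8 to 79.8 Mb (13, 4.53 times), 38.4 to 39 with 43.6 to 44.8 Mb (10, 5.89 times), 86.6 to 88.2 with 123.6 to 125.2 Mb (9, 5.17 times) and 157.8 to 158.2 with 170.2 to 170.8 Mb (5, 25.3 times). A patch of 7 block pairs with 86 read pairs lay at 15.6 to 20.6 with 148.6 to 149 Mb, and its rectangle of 50 block pairs had 291 read pairs, 8.70 times the expected number. The stretch just before the coverage step at 20.6 Mb was thus an end of 3 of these patches.

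**Figure D3:**
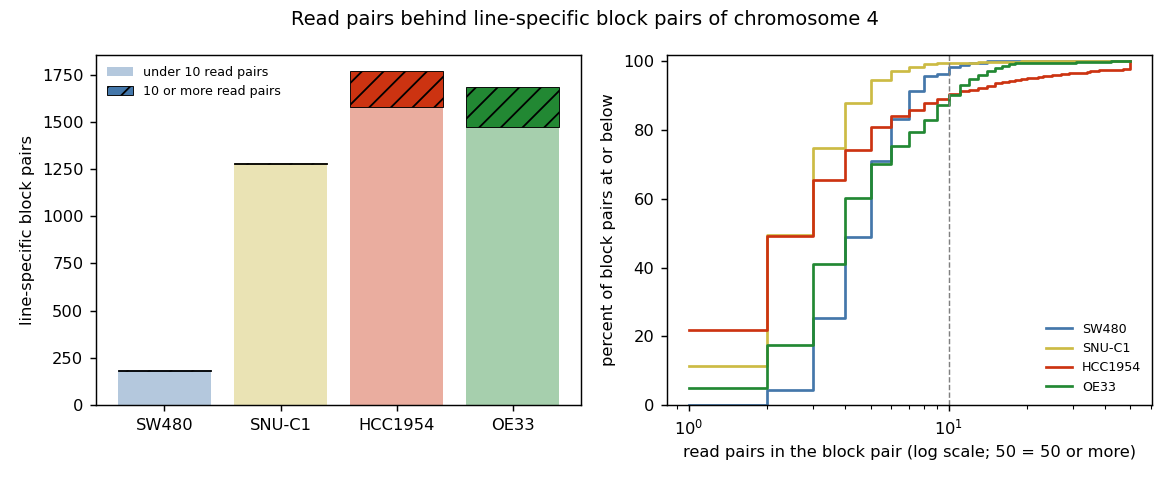
Left, line-specific block pairs of chromosome 4 in each line, split at 10 read pairs. Right, the percent of them at or below a number of read pairs (log axis, counts of 50 or more at 50), where the median is 4 in OE33, 3 in HCC1954 and SNU-C1 and 5 in SW480.

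Line-specific block pairs lay far apart in every line. The share at 50 Mb or more was 95.4% in OE33, the lowest of the 4, with 97.8% in HCC1954, 97.5% in SNU-C1 and 98.9% in SW480, and 55.1% of all block pairs lay that far apart. OE33 had the largest share of read pairs of chromosome 4 at such distances, 6.87%, against 5.53% in SW480 (5.49% and 5.56% in its replicates), 4.08% in HCC1954 and 2.66% in SNU-C1. The same order held over all chromosomes, at 5.01%, 3.86%, 2.91% and 2.40%. Read pairs between the arms made up 4.99% in OE33 and 2.66% to 3.80% in the other lines. Of the OE33 map, 36.6% were read pairs between chromosomes, against 19.6% in HCC1954, 14.8% in SNU-C1 and 0.216% in SW480. The SW480 map also held 28936350 read pairs within a bin, where the other lines held 0, so the deposited maps differ in form. The part of the between-chromosome share, or of this form, in the long-range shares was not tested.

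The counts of OE33 and SNU-C1 depended on the correction more than those of HCC1954. From read pairs without correction, 227 of the 1686 OE33 block pairs (13.5%) had an O/E of at least 4, against 751 of 1767 (42.5%) in HCC1954, 11% in SNU-C1 and 28% in SW480. When the whole call was made without correction, OE33 had 83 block pairs, HCC1954 1353, SNU-C1 67 and SW480 89. The uncorrected O/E is taken over the mean of all chromosomes, so it also carries the coverage of chromosome 4. The median of that coverage was 0.699 in SNU-C1, 0.741 in OE33, 0.818 in SW480 and 1.01 in HCC1954, the order of the shares above. The part of coverage in these differences was not tested. The low segment at 171 to 178.8 Mb had an end in 264 of the OE33 block pairs (15.7%), while 5.80% of all block pairs and 7.08% of those at 50 Mb or more had one. Those 264 had a median of 2 read pairs for 0.354 expected, 3 of them had an uncorrected O/E of at least 4, and 1 had 10 read pairs or more. The other 1422 pairs (84.3%) had both ends outside that segment, and 224 of these (15.8%) had an uncorrected O/E of at least 4, so most pairs under that level lay elsewhere. The 3 blocks with the most line-specific pairs in OE33 started at 178.6, 174.4 and 176.4 Mb, with 38, 30 and 30, all in that segment. Among pairs with at least 10 read pairs they were instead at 65.8, 62.2 and 63.4 Mb, with 10, 9 and 9.

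The OE33 pairs also held more of B with B than all block pairs did. Compartments were taken from the other 3 lines, so that the OE33 map did not define them. Of the 1686 OE33 block pairs, 830 (49.2%) joined blocks that were B in all 3, and of the 214 with at least 10 read pairs 115 (53.7%) did, whereas 14.5% of all block pairs 2 Mb or more apart and 14.6% at 50 Mb or more were of that kind. A further 40.9% of the OE33 pairs had at least 1 end whose compartment differed among those 3 lines and 8.48% were A with B, against 47.5% and 26.5% of all pairs at 50 Mb or more. Pairs of A with A made up 1.42% of the OE33 pairs and 11.4% of all pairs at 50 Mb or more. Touching block pairs are not separate observations, and 84 and 48 of the 214 lay in the largest patches, given below. These shares are therefore a description. HCC1954 showed no such shift, with B with B at 14.6% of its pairs against 15.6% of all at 50 Mb or more, and 1 of its 191 pairs with at least 10 read pairs (0.524%). In SNU-C1 the share of B with B was 14.5% against 14.2% of all at 50 Mb or more. In SW480 it was 26.3% against 14.1%, a shift in the direction of that in OE33.

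Patches of touching OE33 block pairs with at least 10 read pairs covered broad rectangles. The largest had 84 block pairs at 59.2 to 72.8 with 130.4 to 139.4 Mb, and the whole rectangle held 13976 read pairs in OE33 for 3333 expected, 4.19 times, against 1.64 times in SW480, 1.14 in SNU-C1 and 1.59 in HCC1954. No line-specific block pair in it exceeded 17 read pairs. On its first side 44 of 64 blocks and on its second 41 of 44 were B in the other 3 lines. The first side holds 44 protein-coding genes. The second side holds 4, *PCDH10*, *PABPC4L*, *PCDH18* and *SLC7A11*, named after the patch was seen. The next, 61.6 to 68 with 115.6 to 121.8 Mb (48 block pairs), had over its rectangle 4.45 times the expected number in OE33 and 1.16 to 1.73 times in the other lines. Its first side holds *EPHA5*, an ephrin receptor. Smaller patches at 59.6 to 63.8 with 97.2 to 98.2 Mb and at 28.2 to 29.8 with 44 to 46.6 Mb had 4.10 and 5.17 times over their rectangles, and in the latter SW480 and SNU-C1 had 1.83 and 1.72 times and HCC1954 0.868. Another 2 patches of 5 block pairs set OE33 less apart. At 59.2 to 63.6 with 121.2 to 121.8 Mb OE33 had 4.62 times the expected number and HCC1954 4.04, and at 112.8 to 118.8 with 167.4 to 169 Mb OE33 had 2.47 times and the other lines 1.09 to 1.31. The first sides of the 3 largest patches overlap from 61.6 to 63.8 Mb. The highest count of a line-specific block pair was 14 to 42 in these 6 patches, against 205 in the largest patch of HCC1954 and 2135 at *PDGFC* with *CLCN3*.

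Over all B with B pairs at 50 Mb or more, the mean O/E was 1.90 in OE33, 1.07 in SW480 (1.07 in both replicates), 0.968 in SNU-C1 and 0.999 in HCC1954. Over A with B pairs it was 0.611 in OE33, and the ratio of B with B to A with B was 3.12 in OE33, 1.96 in SW480 (1.95 and 1.96), 1.60 in SNU-C1 and 1.28 in HCC1954. OE33 thus lay outside the spread between the SW480 replicates, which is the spread of 1 line only. The chromosome was chosen by line-specific contacts of the same map, so this is a description. At 50 Mb or more A with A did not set OE33 apart, with a ratio to A with B of 2.11 against 1.86 to 2.36. At shorter distances this A with A ratio was highest in OE33. At 2 to 10 Mb it was 1.69 in OE33 and 1.26 to 1.501 in the other lines. At 10 to 50 Mb it was 1.97 in OE33 and 1.62 to 1.95 in the other lines, with SW480 the nearest. At 2 to 10 Mb and at 10 to 50 Mb the B with B ratio of OE33 was 3.12 and 3.54, and in the other lines it was 1.65 to 2.03 and 1.47 to 2.13. Without correction, with the same compartments, the mean O/E of B with B at 50 Mb or more was 0.90 in OE33, 0.811 in SW480, 0.495 in SNU-C1 and 0.635 in HCC1954. OE33 was still the highest but much nearer to SW480. These means also carry the coverage of the chromosome, and A with A went from 1.29 to 1.09 in OE33 and from 1.30 to 1.45 in SW480. The part of coverage in this was not tested. The ratio of B with B to A with B without correction was 2.33 in OE33 and 0.953 to 1.58 in the other lines, and B with B fell under A with B in HCC1954. An O/E of 4 was reached by 14.2% of B with B pairs at 50 Mb or more in OE33 and by 1.40% to 4.83% in the other lines.

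The ratio was highest in OE33 on other long chromosomes too. On chromosomes 3, 5 and 6, the B with B ratio at 50 Mb or more was 2.68, 2.47 and 2.62 in OE33, and 1.43 to 1.92 in the other lines. The mean O/E of B with B did not lead as far on each of them. On chromosome 3 it was 1.57 in OE33 and 1.53 in SW480, while A with B was 0.584 in OE33 and 0.711 to 0.835 in the other lines. On chromosomes 5 and 6 B with B was 1.44 and 1.71 in OE33, against 0.702 to 1.04 and 1.32 to 1.41. The chromosomes are different parts of the same OE33 map and not replicates of it. Chromosome 4 had the highest of the 4 ratios, but it was chosen by the number of its line-specific contacts in this map. Of the OE33 ones, 95.4% lay at 50 Mb or more and 49.2% were B with B, so nothing is read from its rank.

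**Figure D4:**
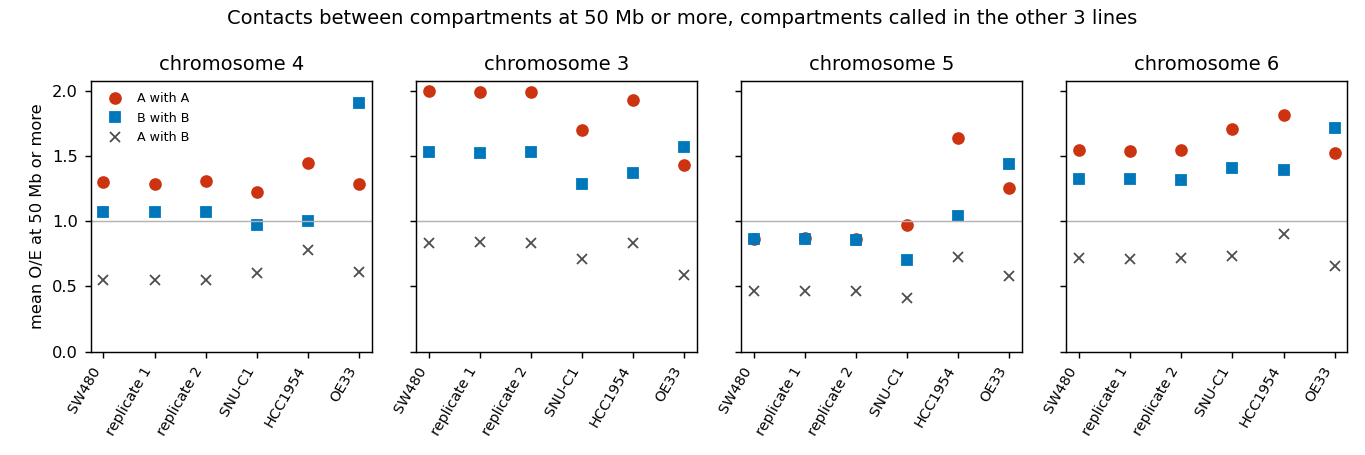
Mean O/E at 50 Mb or more of pairs of A with A, B with B and A with B blocks on chromosomes 4, 3, 5 and 6, in the 4 lines and both SW480 replicates, with compartments taken from the other 3 lines. B with B reaches 1.90 in OE33 on chromosome 4 and 0.968 to 1.07 in the other lines, and it exceeds A with A in OE33 only, on each of the 4 chromosomes, in these corrected values. Without correction it lies under A with A in OE33 on chromosome 4 (0.90 against 1.09).

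Compartments were otherwise largely shared. The first component of the O/E correlation matrix, taken for each arm with the sign set by gene number, placed 50.1% of 894 blocks in A in HCC1954, 49.3% in OE33, 45.6% in SW480 and 44.5% in SNU-C1. All 4 lines had the same sign in 610 blocks (68.2%). Pairs of lines differed in 16.1% to 19.7% of blocks (Pearson's r across blocks 0.730 to 0.824, as a description), and the SW480 replicates in 2.57% (r 0.994). HCC1954 alone differed from the 3 others in 56 blocks, 41 of them to A and 15 to B, and OE33 alone in 36, 27 to A and 9 to B. SW480 and SNU-C1 had 42 and 45 such blocks.

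The longest stretch where HCC1954 alone was A ran from 43.2 to 44.8 Mb (8 blocks), with a mean component of 0.518 against -0.851, -0.885 and -0.912 in SW480, SNU-C1 and OE33. It includes the *YIPF7* end of the contact with the region before *KLF3*, a gene in A in every line. The stretch lies in the segment with 2.14 times the coverage of the other lines. At the start of that segment those lines fell, and HCC1954 itself stayed level. Other HCC1954 stretches in A lay at 156.2 to 157 Mb (0.784 against -0.658, -0.511 and -0.668), before *PDGFC* and at the start of the segment with 1.90 times the coverage, and at 166.4 to 167 Mb, where *TLL1*, a protease of the matrix, had a component of 0.742 against -1.05 to -1.20. *VEGFC* was A in HCC1954 (0.815) and OE33 (0.602) and B in SW480 and SNU-C1 (-0.933 and -1.04). The component moved with coverage in each line (r 0.437 to 0.675 across blocks), and the parts of coverage and of the line-specific contacts in these changes were not tested. In OE33 the longest stretch was 182.8 to 183.6 Mb (4 blocks), over the teneurin gene *TENM3*, with 0.328 against -0.318 to -1.17, and 23.8 to 24.4 Mb had 0.593 against -0.635 to -0.888.

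Boundaries were called as insulation minima with a 1-Mb window, and 164 were found in HCC1954, 161 in OE33, 162 in SW480 and 185 in SNU-C1. Within 2 bins, 86 of HCC1954 (52.4%) and 88 of OE33 (54.7%) were present in all 4 lines, and 15 and 14 were found in that line only. The SW480 replicates shared 91.6% of 166 and 94.4% of 161, so the share between lines, 65.9% to 79.6%, lay below that between replicates. The CTCF motif was in 9.76% of boundary bins in HCC1954 and 9.94% in OE33, against 8.02% and 8.11% in SW480 and SNU-C1 and 4.99% of all bins. With 1 bin on either side the shares were 17.7%, 23%, 21% and 22.7%, against 14.0% of all bins.

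At the contact ends, HCC1954 differed most at *YIPF7*. SW480, SNU-C1 and HCC1954 had a boundary within 80 kb of 44.60 Mb, and the lowest insulation there was -1.57 in HCC1954 against -0.696, -0.782 and -0.352 in SW480 (-0.675 and -0.718 in its replicates), SNU-C1 and OE33. The strength of that boundary was 2.03 in HCC1954 and 0.714 to 1.30 in the others. The *CLCN3* end lay 80 kb from a boundary present at 170.48 Mb in all 4 lines, with its lowest insulation at -1.10 in HCC1954 and -1.06 in OE33, and -0.475 and -0.633 in SW480 and SNU-C1. The motif printed for this end lies 41.4 kb from the centre of that boundary bin. The *FAM13A* end lay 80 kb from a boundary at 90.04 Mb in all 4 lines (-1.08 in HCC1954, -0.628 to -1.12 in the others). At the *SLIT2* end a boundary lay 80 kb away in SW480, HCC1954 and OE33 and 120 kb away in SNU-C1. At the *KLF3* end the nearest boundary was 240 to 360 kb away. At the *PDGFC* end the nearest boundary was 240 to 280 kb away, beside the printed motif, at the *GALNT7* end 1520 kb and at the *VEGFC* end 280 to 680 kb, in every line. A boundary present in other lines thus stood at the *YIPF7*, *CLCN3*, *SLIT2* and *FAM13A* ends, and none within 80 kb at the *KLF3*, *PDGFC*, *GALNT7* and *VEGFC* ends. Of the start sites of all 692 protein-coding genes, 28.5% to 30.6% lay within 80 kb of a boundary in the 4 lines. The ends named here are few and were chosen by their contacts, and those of the other contacts are not listed, so nothing is read from this.

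The coverage of a gene was taken from the 200-kb blocks within 500 kb, so it follows that of its segment by definition. Neighbours such as *EREG* and *EPGN*, or the TLR genes, share blocks and values. The counts by list below are therefore a description and not counts of separate observations. Of 692 protein-coding genes, 478 had at least 1.25 times and 28 at most 0.8 times the coverage of the other lines in HCC1954 (median 1.43), and 72 and 134 did in OE33 (median 0.869). All 5 EGFR ligand genes reached 1.25 in HCC1954, where *EREG*, *EPGN*, *AREG*, *BTC* and *EGF* had 1.475 to 1.73 times, and 4 of them were at most 0.8 in OE33 (0.752 to 0.844 over the 5). Of the growth factor receptors and kinases, *PDGFRA*, *KIT* and *KDR* had 1.45, 1.49 and 1.51 in HCC1954 and 0.873 to 0.903 in OE33, while *FGFR3*, *TACC3* and *NSD2* near the start of the chromosome had 0.837 to 0.861 in HCC1954 and 1.67 to 1.74 in OE33. At *FGFR3*, *TACC3* and *NSD2* the coverage of OE33 itself was 0.813 to 0.817, where its median over the chromosome was 0.741. The other lines had 0.384 to 0.582 there, so these ratios were largely carried by the comparison lines.

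Among tumour suppressors and genome maintenance genes, 11 of 13 reached 1.25 in HCC1954, without *FAT1* and *SLIT2* (1.16 and 1.20), and 8 were at most 0.8 in OE33. The lowest there were *HPGD*, which degrades prostaglandins, at 0.426, and the DNA glycosylase gene *NEIL3* at 0.444, both in the low segment, where the cardiac transcription factor gene *HAND2* had 0.395. *NEIL3* had 2.09 times in HCC1954. All 12 clustered genes, with the TLR, CXCL, albumin and casein families, reached 1.25 in HCC1954 and 4 were at most 0.8 in OE33. Of the vascular and matrix genes 5 of 6 reached 1.25 in HCC1954, led by *VEGFC* (2.91) and *PDGFC* (2.24), and *VEGFC* had 0.511 in OE33. Among the developmental transcription factors *MSX1* was at 0.644 in HCC1954, and *HMX1* and *MSX1* were at 2.14 and 1.60 in OE33. Of 8 large genes, 2 reached 1.25 in HCC1954, and *KCNIP4*, an interactor of potassium channels in the piece from 20.6 to 38.4 Mb, was at 0.650. Large genes lay mostly in B, with 2 of 8 in A in HCC1954 and 3 in OE33, against 78.5% and 79.9% of all 692 genes. The blocks with the starts of *FGFR3*, *TACC3* and *HMX1* were not usable, and their coverage comes from blocks within 500 kb. Expression was not measured in these maps.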

How the data were processed

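In situ Hi-C with the enzyme MboI was aligned by the authors to hg19 with BWA-MEM and duplicates were removed with Picard, with versions not stated there. The deposited values are a signal, contacts per pair of 40-kb bins after the authors' iterative correction, which evens out the total of each bin. Bin factors were fitted to each map, and 99.95% to 100% of the values tested came out as whole read pairs within 0.02. SW480 maps held 0.216% of read pairs between chromosomes and were treated per chromosome. The study speaks of biological Hi-C replicates and does not say how their cultures were kept apart, and whether the single maps of the other lines pool libraries is not given in the labels. Genes and positions come from a GENCODE annotation on GRCh37. Gene coverage is the median of blocks within 500 kb. Genes are named where they overlap a contact end or lie within 120 kb of it (else the nearest), or belong to 7 lists, apart from 4 genes chosen after their patch was seen. The members and lists were chosen with earlier results of these data known. Matplotlib 3.10.9, Numba 0.67.0, PyArrow 21.0.0, pandas 2.3.3, SciPy 1.17.1 and NumPy 2.4.6 were run in Python 3.11.15, and the scripts were tested on simulated data. Block size, filter, correction, expected value, thresholds and the SW480 replicate were varied. One gene of the lists is not reported here.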

Additional observations from a re-analysis of the deposited data

How the results depend on the processing

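Of the values recomputed for the main results, 64 stayed within their tolerance and 38 moved. Segments of OE33 numbered 5 with blocks of 400 kb and 5 with a penalty factor of 20, and 23 with read pairs between chromosomes included, an alternative chosen after seeing the data. Line-specific block pairs of HCC1954 numbered 105 with blocks of 400 kb, 191 with at least 10 read pairs, 1004 at 8 times the other lines and 2821 at equal depth, and those of OE33 57, 214 and 776 under the first 3 and 83 without correction. The share of the OE33 pairs under 10 read pairs was 7.02% with 400-kb blocks, 65.1% without correction, 92.3% with the expected value of chromosome 4 alone, 98.8% at 8 times and 0% by construction with at least 10 read pairs. The O/E of the contact at 38.52 and 44.60 Mb was 16.3 over 5 by 5 bins, 35.2 in 1 bin, 43.0 without correction and 26.8 with the expected value of chromosome 4. At 157.84 and 170.56 Mb it was 46.5, 133 and 343 under the first 3, and at 174.12 and 177.56 Mb 13.9 in 1 bin, 56.2 without correction and 14.4 with that expected value. With both arms together, HCC1954 alone differed in 12.1% of blocks and 61.9% had the same sign in 4 lines. The ratio of B with B to A with B was 1.24 in HCC1954 and 3.07 in OE33 with 400-kb blocks, 1.34 and 3.96 with both arms together, and 0.972 and 2.40 without correction, with the compartments also taken from uncorrected values, which turned its order in HCC1954. Leaving out either SW480 replicate gave 1.28 to 1.29 in HCC1954 and 3.09 to 3.13 in OE33, and changed no other main result beyond its tolerance. Boundaries found only in HCC1954 made up 4.21% with a 480-kb window, and those only in OE33 14.9% with a tolerance of 1 bin. The causes were not tested where the setting itself does not show them.

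No paired analysis was possible because only SW480 has separate maps of replicates. With 1 map each, pooled or not, the replicate error of HCC1954 and OE33 cannot be seen here, and intervals cover counting error only. At 50 Mb or more a median of 0.794 read pairs per block pair was expected in HCC1954 and 1.04 in OE33, so single block pairs there are limited by depth.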
